A study of Mus musculus with 2 samples.

Results

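Sites on other chromosomes that were joined to the Pou5f1 enhancer by 4C-Seq and that lay close to the start of a protein-coding gene were examined. A site belonged to this set when it was listed among the contacted HindIII sites, was not on chromosome 17, which carries the bait, and started at most 10 kb from the nearest protein-coding gene start (the 5′ end of the gene in GENCODE M1 on mm9). The rule selected 256 of the 590 listed sites off chromosome 17, out of 1806 listed sites in all. The other 334 sites off chromosome 17 lay farther than 10 kb from any such start.

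Both samples were mouse embryonic stem (ES) cells of the E14 line, grown on gelatin in medium with serum and LIF, a cytokine that holds ES cells in the undifferentiated state. They were labelled as replicates 1 and 2 of 1 group and had no other treatment than formaldehyde cross-linking, so there was no control or treated group. Chromatin was cut with HindIII, ligated, and cut again with DpnII, and DNA joined to the enhancer upstream of Pou5f1 was amplified and sequenced. The study scored regions in each replicate and listed the contacted sites of the regions found in both.

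Pou5f1 encodes Oct4, a transcription factor that keeps ES cells pluripotent, and its distal enhancer is active in these cells. Contacts of such an element with other chromosomes are rare in any single cell, and a 4C library sums them over many cells. Active chromatin tends to lie together in the nucleus, is rich in genes and has a higher GC content than inactive chromatin, and many gene starts lie in CpG islands, stretches where the dinucleotide CpG has been retained.

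The contacted sites closest to a gene start show what the assay recorded: a HindIII motif, AAGCTT, at which a distant fragment was ligated to the bait, and any motif of the second enzyme, DpnII (GATC), close to it. The 3 closest members lay in annotated untranslated regions, and the 30 bases around each motif are given on mm9 and on the strand of the gene, with both kinds of motif in capitals.
2610318N02Rik, chr16:17125111-17125140: gGATCttccactAAGCTTcaccttgtcccc
Polr2h, chr16:20717619-20717648: ggttaggcccccAAGCTTtccacgctttgg
Ypel1, chr16:17069917-17069946: gagagagggaagAAGCTTgcgctctaggga
The next 3 members lay upstream of their gene starts, so 150 bases around each motif are given in the same way, and show the promoter-proximal DNA in which these contacts were found.
2810405K02Rik, chr4:154273315-154273464: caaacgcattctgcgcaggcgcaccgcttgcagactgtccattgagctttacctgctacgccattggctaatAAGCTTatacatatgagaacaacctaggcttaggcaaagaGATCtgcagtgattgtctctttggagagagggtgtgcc
Arid3a, chr10:79389468-79389617: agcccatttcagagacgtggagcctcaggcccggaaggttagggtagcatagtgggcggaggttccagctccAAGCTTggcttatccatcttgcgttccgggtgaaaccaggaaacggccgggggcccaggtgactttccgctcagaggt
Atp13a1, chr8:72314737-72314886: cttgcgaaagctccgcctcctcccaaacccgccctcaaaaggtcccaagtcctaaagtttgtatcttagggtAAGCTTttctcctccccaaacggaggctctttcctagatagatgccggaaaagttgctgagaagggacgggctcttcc
The last pair lay in an intron of Kcnk4, which encodes a background potassium channel. It is shown because both ends of a single HindIII fragment of 663 bases were listed.
Kcnk4, chr19:7005444-7005593: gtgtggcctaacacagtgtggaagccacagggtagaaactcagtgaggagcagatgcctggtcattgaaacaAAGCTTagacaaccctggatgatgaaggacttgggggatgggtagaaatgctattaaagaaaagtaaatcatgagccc
Kcnk4, chr19:7006107-7006256: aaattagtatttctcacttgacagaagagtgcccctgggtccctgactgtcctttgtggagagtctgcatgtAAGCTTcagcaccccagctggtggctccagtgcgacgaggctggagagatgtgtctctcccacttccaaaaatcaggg

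No read counts come with the listed positions, so the number of reads behind a given site is unknown, and the number needed to list a site is not stated. Sites off chromosome 17 fell in 41 windows called in replicate 1, of which 34 were called in replicate 2 as well and 7 in replicate 1 only. Each of these 7 touched a window called in both replicates. Their sites were kept, and the odds ratio of near against far is also given without them. The windows spanned 111.48 Mb. Every HindIII motif of the same windows served as the background: 31153 motifs, of which 590, or 1.89%, were listed. The table of sites does not separate the replicates, so no replicate error can be given for a site. The p-values concern motifs within windows and not replicates, and motifs in 1 window share its libraries and its chromatin. Intervals in brackets are exact (Clopper-Pearson) 95% intervals for shares and 95% intervals of the model for odds ratios. They cover counting error, and for odds ratios also the spread between windows.

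HindIII motifs near gene starts were listed more often than the other motifs of the same windows. Of 9592 motifs within 10 kb of a start, 256 were listed, or 2.67% (2.36% to 3.01%), against the background of 1.89% over all motifs. Of 21561 motifs farther away, 334 were listed, or 1.55% (1.39% to 1.72%), which makes a ratio of 1.72. Sites within 10 kb of a start made up 43.4% of listed sites and 30.5% of the motifs that were not listed. With the window held fixed, the odds ratio of near against far was 1.59 (1.37 to 1.85, binomial model, adjusted p = 1.52e-08). It was 1.35 (1.15 to 1.57) with GC content, HindIII fragment lengths and DpnII distance in the same model (binomial model, adjusted p = 7.79e-04).

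In bins of distance in either direction, the share of motifs that were listed was highest beside the gene start and fell with distance. It was 3.97% (42 of 1058 motifs) within 1 kb, 3.19% (55 of 1724) from 1 to 2.5 kb, 2.66% (71 of 2673) from 2.5 to 5 kb and 2.13% (88 of 4137) from 5 to 10 kb. Beyond the limit it was 2.03% from 10 to 20 kb, 1.64% from 20 to 40 kb and 0.742% beyond 160 kb. These shares pool the motifs of all windows without holding the window fixed, so differences between windows are not separated from distance. The intervals of neighbouring bins overlapped, so the decline shows over several bins and not as a step at 10 kb. Among motifs within 10 kb, the odds of being listed changed by a factor of 0.626 per 10-fold distance (0.496 to 0.790, binomial model, adjusted p = 2.57e-04). With GC content, fragment lengths and DpnII distance in the model the factor was 0.803 and did not pass the threshold (binomial model, adjusted p = 0.133). Counting the gene starts of all biotypes gave 0.815 (binomial model, adjusted p = 0.177). The median distance was 3317.5 bases for members and 4386.5 bases for unlisted motifs within 10 kb.

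**Figure D1:**
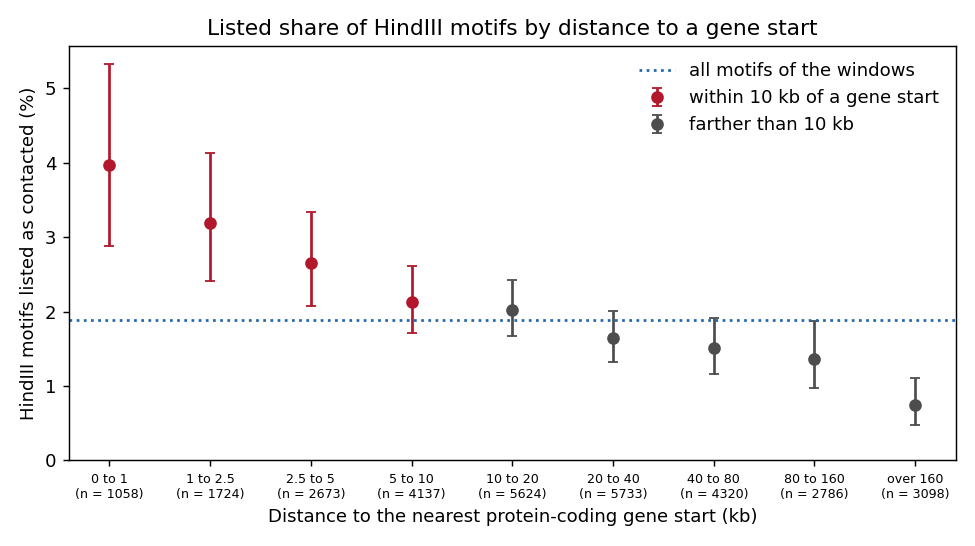
Percent of HindIII motifs listed as contacted (y axis) in bins of distance to the nearest protein-coding gene start in kb (x axis). Points are shares over all motifs of the bin in the 41 windows and bars are exact 95% intervals. The share fell from 3.97% within 1 kb to 0.742% beyond 160 kb.

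Members lay from 76 to 9993 bases from the nearest start, and 42 of them lay within 1 kb. The closest was 76 bases downstream of the start of 2610318N02Rik, in its untranslated region. The site 107 bases upstream of Polr2h, which encodes a subunit shared by the nuclear RNA polymerases, also lay in an untranslated region of the neighbouring gene Clcn2, a chloride channel. It was the only site among the 10 closest whose window was called in replicate 1 only. The site 140 bases downstream of the start of Ypel1 lay in the same window as that of 2610318N02Rik. The site 143 bases upstream of 2810405K02Rik was intergenic. Arid3a, which encodes a DNA-binding factor of the ARID family, had a site 248 bases upstream. The site 253 bases upstream of Atp13a1, which encodes a P-type ATPase of the endoplasmic reticulum, was also 268 bases from the start of Zfp866 and lay in an intron of that gene. Efs, an adaptor protein of the Cas family, had a site 256 bases upstream, and Ehbp1l1 had one 271 bases upstream. Nup214, a component of the nuclear pore, had a site 287 bases upstream. Mknk2, a kinase that phosphorylates the cap-binding translation factor, had one 299 bases upstream. GC content around these 10 sites ran from 52.0% at Atp13a1 to 67.4% at Mknk2, above the median of 49.55% over all members. They were not compared with unlisted motifs equally close to a start.

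At the limit itself, the farthest members were those of Cux1, a homeodomain factor, at 9985 bases and Tmem39b at 9993 bases. The sites just outside were those of Urb2 at 10109 bases and Tax1bp1, an autophagy adaptor, at 10180 bases. These 4 sites had a GC content of 42.0% to 43.4%.

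Over all near motifs, contacts were listed more often downstream of the gene start than upstream. Of 4997 motifs downstream, 155 were listed, or 3.10% (2.64% to 3.62%), and of 4595 motifs upstream, 101, or 2.20% (1.79% to 2.66%). The odds ratio of upstream against downstream was 0.716 (0.547 to 0.937, binomial model, adjusted p = 0.0211). With GC content, fragment lengths and DpnII distance in the model it was 0.767 and did not pass (binomial model, adjusted p = 0.0983), and with gene starts of all biotypes it was 0.839 (binomial model, adjusted p = 0.183). In bins of 2 kb, the share was 1.37% at 8 to 10 kb upstream and 2.97% in the last 2 kb before the start. It was 3.99% in the first 2 kb after the start and 4.04% from 2 to 4 kb after it, and then 2.21%, 2.11% and 2.78% in the remaining bins.

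**Figure D2:**
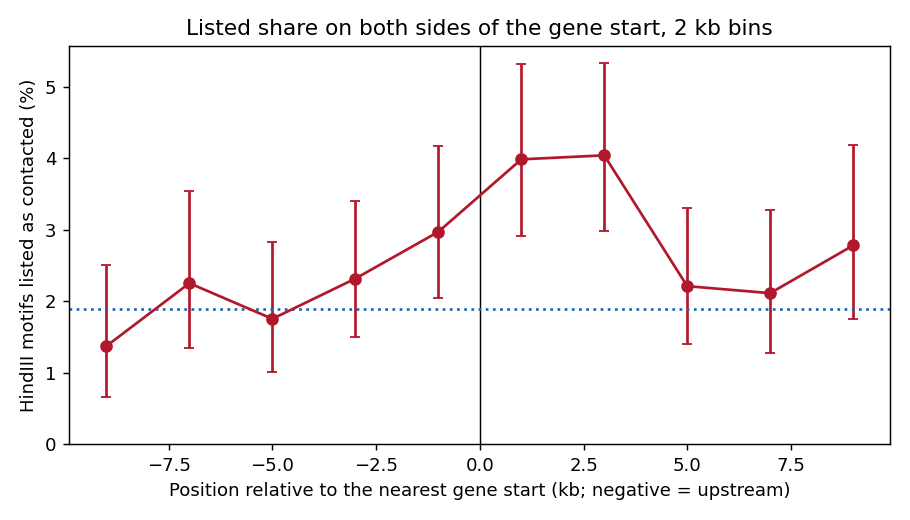
Percent of HindIII motifs listed as contacted (y axis) in 2 kb bins by position relative to the nearest protein-coding gene start in kb (x axis, negative values upstream). Points are shares over all motifs of the bin and bars are exact 95% intervals. The highest shares, 3.99% and 4.04%, were in the first 4 kb downstream of the start.

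Location inside a gene body went with listing as well. Of 5418 near motifs inside the body of a protein-coding gene, 179 were listed, or 3.30% (2.84% to 3.81%), and of 4174 outside, 77, or 1.84% (1.46% to 2.30%). The odds ratio was 1.75 (1.28 to 2.39, binomial model, adjusted p = 8.94e-04) and 1.53 (1.11 to 2.09) with GC content, fragment lengths and DpnII distance in the model (binomial model, adjusted p = 0.0216). On the upstream side, 2.89% of motifs inside another gene's body were listed and 1.98% of those outside gene bodies. Downstream, 3.41% of motifs inside a body were listed. Of 687 downstream motifs past the end of a short gene or otherwise outside gene bodies, 8, or 1.16%, were listed. Outside gene bodies the share was thus lower downstream than upstream, with overlapping intervals. Side and gene body were not tested in the same model. Of the 256 members, 135 lay in introns, 77 were intergenic, 20 lay in coding exons, 19 in untranslated regions and 5 in other exons. Listed shares were 3.84% (2.80% to 5.12%) in exons, 3.16% (2.65% to 3.73%) in introns and 1.85% (1.46% to 2.30%) between genes. The intervals of exons and introns overlapped, and both lay above that of intergenic motifs. Motifs farther than 10 kb showed the same order, with 2.18% listed inside gene bodies and 1.02% outside.

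Members lay in DNA of higher GC content than other near motifs, and this relation had the lowest p among the properties tested in near motifs. Its median over the 1000 bases around the motif was 49.55% for members, 47.1% for unlisted near motifs, 47.95% for listed far sites and 44.7% for unlisted far motifs. Each 10 percentage points of GC content multiplied the odds of a near motif being listed by 1.86 (1.50 to 2.32, binomial model, adjusted p = 1.22e-07). All motifs were divided into 5 quintiles of GC content. In the lowest quintile 17 of 1216 near motifs were listed and in the highest 109 of 2657, or 4.10%. Near motifs had a higher share than far motifs in each quintile, and both were highest in the quintile richest in GC. Far motifs were listed at 0.698% in the lowest quintile and in 104 of 3463 cases in the highest.

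**Figure D3:**
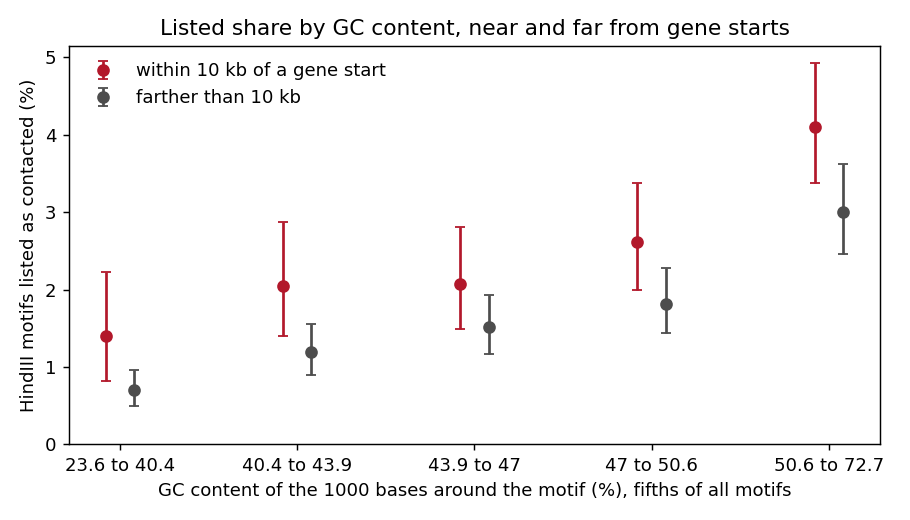
Percent of HindIII motifs listed as contacted (y axis) in quintiles of all motifs by GC content of the surrounding 1000 bases in percent (x axis), for motifs within 10 kb of a gene start and for motifs farther away. Points are shares and bars are exact 95% intervals. Both series were highest in the quintile richest in GC, and near motifs lay above far motifs in 5 of 5 quintiles.

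Gene starts that retain CpG were contacted more often in their vicinity. The CpG ratio, the observed number of CpG dinucleotides over that expected from base composition in the 1000 bases around the gene start, had a median of 0.632 at the starts nearest to members and 0.579 at those nearest to unlisted near motifs. The odds of listing were multiplied by 1.08 per 0.1 of the ratio (1.04 to 1.13, binomial model, adjusted p = 3.35e-04). The factor was again 1.08 with the GC content of the motif itself, fragment lengths and DpnII distance in the model (1.03 to 1.12, binomial model, adjusted p = 8.40e-04). By quintile of the ratio, the listed shares were 1.67% and 1.82% in the lowest ones and 3.60%, 2.98% and 3.28% in the remaining ones, so the shares at CpG-poor starts lay below the others. Where several gene starts lay within 10 kb of a motif, the share was 2.41% with 1 start, 3.20% with 2 and 4.60% (20 of 435) with 3 or more. The odds ratio of 2 or more starts against 1 was 1.30 (0.978 to 1.74), which did not pass the threshold (binomial model, adjusted p = 0.0879). In the windows called in both replicates alone it was 1.36 and passed (binomial model, adjusted p = 0.0443). With GC content, fragment lengths and DpnII distance in the model it was 1.16 and did not pass (binomial model, adjusted p = 0.371).

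Properties of the assay varied with listing too. Near motifs whose shorter HindIII fragment was longer were listed more often, with an odds ratio of 1.28 per 10-fold length (1.05 to 1.57, binomial model, adjusted p = 0.0211). With unique flanks required it was 1.22 and did not pass (binomial model, adjusted p = 0.0672). The median shorter fragment was 1365 bases for members and 1241 bases for unlisted near motifs, and the lowest share, 1.93%, was in the quintile with the shortest fragments. The distance to the nearest DpnII motif had an odds ratio of 1.06 per 10-fold distance (0.885 to 1.26), which did not pass (binomial model, adjusted p = 0.534). By quintile, the share was 1.91% in the nearest, 3.28%, 3.20% and 3.03% in the middle ones and 1.93% in the farthest, so it was lower at both extremes, which a term for a steady trend cannot show. Of the 256 members, 254 had unique flanks, meaning that neither of the adjoining stretches of 30 bases was found again next to another HindIII motif. The other 2 members each had 1 flank that was found only once. Whether reads from repeated flanks could be placed was not tested. Of near motifs with unique flanks 2.90% were listed, and of 847 with repeated flanks, 2, or 0.236%. Among motifs with unique flanks alone, the odds ratio of near against far was 1.51 (1.30 to 1.74, binomial model, adjusted p = 2.50e-07).

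**Figure D4:**
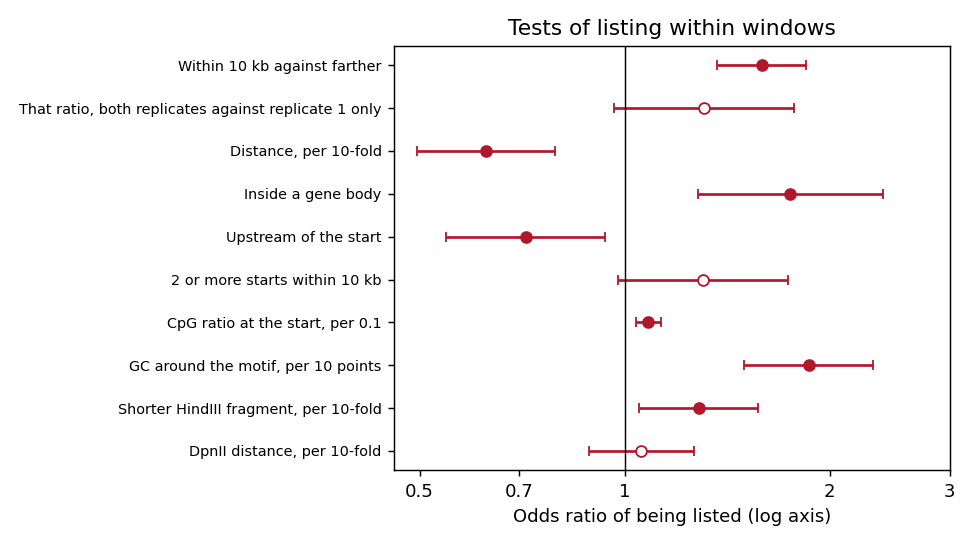
Odds ratio of being listed (x axis, log scale) for the 10 tests, each with the window held fixed. Points are estimates and bars are 95% intervals, and filled points passed an adjusted p of 0.05. Nearness (1.59), location in a gene body (1.75) and GC content (1.86 per 10 percentage points) lay farthest above 1, and distance (0.626 per 10-fold) and the upstream side (0.716) lay below it.

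The excess near gene starts was spread over most windows. Near motifs were listed more often than far motifs in 33 of 41 windows and less often in 8. The listed share was 2.59% ± 1.22 (SD over 41 windows) for near motifs and 1.65% ± 0.690 for far motifs, a mean difference of 0.943 ± 1.23 percentage points. Leaving out each window in turn gave odds ratios of 1.55 to 1.64. By chromosome, near motifs had the higher share on 17 of 18 chromosomes with members, chromosome 9 being the exception. In windows called in both replicates, 2.78% of near motifs (232 of 8337) and 1.60% of far motifs were listed. The odds ratio in these windows alone was 1.64 (1.39 to 1.94, binomial model, adjusted p = 4.42e-08). In windows of replicate 1 only, the shares were 1.91% (24 of 1255) and 1.35%. The ratio of the odds ratios of these classes of window was 1.31 (0.965 to 1.77), which did not pass (binomial model, adjusted p = 0.0933). It was 1.68 with gene starts of all biotypes, which passed (binomial model, adjusted p = 9.33e-04), and 1.56 with a limit of 5 kb (binomial model, adjusted p = 0.0450). It was 1.15 with the starts of all protein-coding transcripts (binomial model, adjusted p = 0.504) and 1.21 with GC content, fragment lengths and DpnII distance in the model (binomial model, adjusted p = 0.211), and passed in neither.

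**Figure D5:**
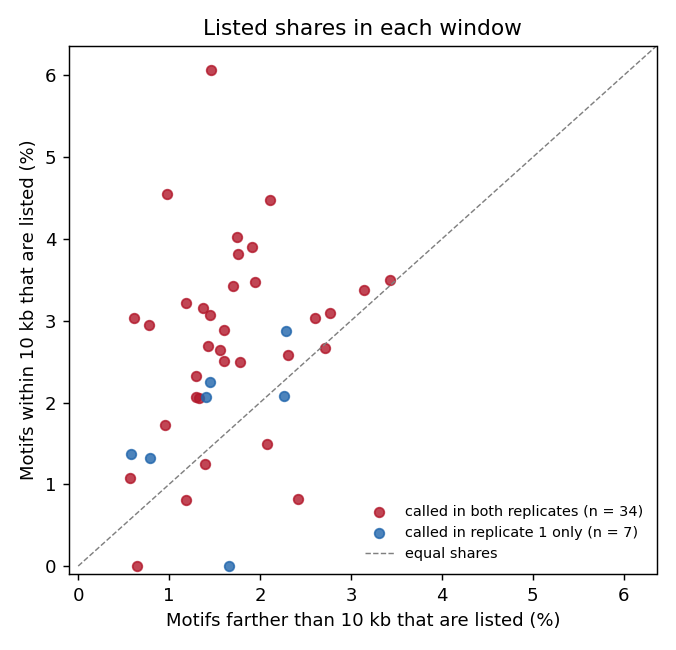
Percent of motifs within 10 kb of a gene start that were listed (y axis) against percent of motifs farther away that were listed (x axis), 1 point per window, with windows called in both replicates and in replicate 1 only marked apart. The line marks equal shares. Of 41 windows, 33 lay above it.

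The 5 windows with the most members held 76 to 164 gene starts each. A window on chromosome 19 (5736493 to 9284305) held 109 protein-coding gene starts and 15 members, or 4.02% of 373 near motifs, against 1.75% of far motifs. A window on chromosome 10 (78149965 to 82328861) with 164 starts also held 15 members, or 3.07% of 489 near motifs, against 1.45%. Another on chromosome 10 (125381910 to 128159590) held 12 members, or 4.48% of 268 near motifs, against 2.11%. In each of these windows the near share exceeded the far share, but choosing windows by their number of members favours a high near share. Windows on chromosome 8 (107653838 to 109940440) and chromosome 14 (54411760 to 56946052) had 12 members each, or 3.90% and 3.43% of near motifs, against 1.91% and 1.70%. Of the windows, 2 had no member. The window on chromosome X (10569948 to 13250908) had 19 starts and 0 of 68 near motifs listed, which allows a share of up to 4.41%, while 5 of 772 far motifs were listed. The window on chromosome 13 (52204484 to 54602873), called in replicate 1 only, had 0 of 75 near motifs listed, which allows up to 4.00%, against 1.66% of far motifs. Both limits lie above the share of near motifs as a whole. The window with the highest near share, chosen after its value was seen, was on chromosome 6 (50927081 to 52858765) and held the HoxA cluster, with 6 of 99 near motifs listed, or 6.06%, against 1.46%. The members nearest to Hnrnpa2b1, Hibadh and Tax1bp1, named after their values were seen, lay in this window but outside the cluster. Among windows with a member, also chosen afterwards, that farthest below its far share was on chromosome 9 (56423880 to 58799642), with 0.820% against 2.42%.

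The 256 members had 239 different nearest genes. Of these genes, 222 had 1 member and 17 had 2, and none had more. The members of a pair share a target and are not independent. Of the 17 pairs, 8 were the ends of 1 HindIII fragment. Among the 10 pairs first by gene name, this held for Bst2 (6430 bases apart), which encodes the antiviral membrane protein tetherin, and for Cd7 (944 bases), a T cell surface protein. It held as well for Fhod1 (1066 bases), a formin that acts on actin, Hcn2 (2672 bases), a hyperpolarization-activated channel, Kcnk4 (663 bases), shown above, and the kinase gene Map3k6 (2608 bases), whose window was called in replicate 1 only. In these 6 cases both sites lay downstream of the start. In the other 4 at least 1 further HindIII motif lay between the members. These were Gins2 (512 bases apart), a subunit of the GINS complex of DNA replication, and Gmpr2 (1572 bases), a GMP reductase. The remaining pairs lay on both sides of the start, at H2afy (9525 bases apart), which encodes the histone variant macroH2A, and at Hsp90aa1 (9252 bases), which encodes a chaperone. Motifs directly next to a member were listed in 17 of 502 cases, or 3.39% (1.98% to 5.37%), an interval that includes the 2.67% of all near motifs.

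Seen from the genes, 331 of the 2412 protein-coding gene starts in the windows, or 13.7%, had a listed site within 10 kb, and 30 of them had 2. A further 27 starts had no HindIII motif within 10 kb and could have none. Lists of genes related to the bait gene or to chromatin structure were counted against this background. Of the Polycomb and Trithorax genes, which maintain silent and active states, 10 starts lay in the windows and 2 had a site. These were Rbbp5, a core subunit of histone H3 lysine methyltransferase complexes, at 2341 bases, and Ash1l, a histone methyltransferase, at 7713 bases from a site nearer to Dap3. Of the genes for cohesin, Mediator and CTCF, which take part in chromatin looping, 1 of 8 starts had a site, that of the Mediator subunit Med27 at 2108 bases. Ctcf itself lay in a window, with the nearest listed site 12182 bases away. The share of 2 in 10 lay above the background of 13.7% and that of 1 in 8, or 12.5%, just below it, and no test was made of either.

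Of the pluripotency network, Klf2 and Thap11 lay in the windows, and neither had a site within 10 kb. The nearest listed sites were 35087 and 30160 bases away, and 0 of the 13 motifs near these starts were listed, which allows a share of up to 23.1%. None of 9 ribosomal protein gene starts had a site, with 0 of 59 motifs listed, which allows up to 5.08%. These limits lie above the 2.67% of near motifs as a whole, so a lower share of these groups was not detectable.

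Of 36 starts of genes named Zfp, 6 had a site: Zfp866 at 268 bases, Zfp626 at 956, Zfp36 at 2313, Zfp90 at 2560, Zfp276 at 6835 and Zfp775 at 9026. Zfp36 encodes an RNA-binding protein that speeds the decay of messages, unlike the DNA-binding factors that make up most of this list. The distinct motifs near Zfp starts were listed in 6 of 223 cases, or 2.69%, close to the 2.67% of all near motifs. Of 32 olfactory receptor gene starts, which lay in 7 windows and are silent in most cell types, none had a site. None of their 176 motifs was listed, which allows up to 1.70%, and 71.6% of these motifs had unique flanks, against 91.2% of all near motifs. The part of repeated sequence in this difference was not tested. Of 20 starts of keratins and keratin-associated proteins, 1, or 5.0%, had a site, against 13.7% of all starts. This was Krtap11-1, at 5277 bases. Of their 131 motifs 1 was listed, or 0.763% (0.0193% to 4.18%), an interval that includes the 2.67% of all near motifs.

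The HoxA cluster encodes homeodomain factors that pattern the body axis, and lay in the window on chromosome 6 described above. A member at 52186923, in an intron of Hoxa10, was 3930 bases from the start of Hoxa10, 5835 bases from that of Hoxa9 and 9290 bases from that of Hoxa11, so these 3 gene starts shared 1 site. Another member, at 52130046, lay in an untranslated region of 5730596B20Rik, 2549 bases from its start, and inside the annotated body of Hoxa3. Hoxa3, Hoxa4, Hoxa5, Hoxa6, Hoxa7 and Hoxa13 had no site within 10 kb. Hoxa11, Zfp775 and 5730596B20Rik lie outside the rule for named genes and were added after their values were seen, to complete the lists, as were the genes named as having no site.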

How the data were processed

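Enzyme-based 4C-Seq of the Pou5f1 enhancer was carried out in 2 replicates of E14 ES cells. The authors selected reads that began at the bait, aligned them with BWA (version not given in the sources used here) to mm9 and scored contacted HindIII sites in windows of consecutive sites. The deposited files hold positions only, the start and end positions of the windows of each replicate and of the contacted sites in regions found in both, with no read count or score. Sonication-based libraries were not analysed here.

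Listed sites were matched to HindIII motifs of NCBIM37 (the same assembly as mm9) by their start, and gene starts were those of GENCODE M1. Coordinates count from 1. Each of 10 tests was a binomial (logit) model over motifs with the window as a factor, standard errors clustered by window, two-sided Wald p-values and Benjamini-Hochberg adjustment over the 10 tests (threshold 0.05). Tests among near motifs used 9449 motifs of 39 windows, since 2 windows (143 near motifs) held no member. Distance was entered as log10 of bases + 100. GC content and the CpG ratio were taken over 1000 bases. Flanks of 30 bases were compared for uniqueness. Limits for counts of 0 assume 3 counts. The model of near against far was tested on simulated data. Python 3.11.15, statsmodels 0.14.6, scipy 1.17.1, pandas 2.3.3 and numpy 2.4.6 were used.

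The alternatives were unique flanks, covariates, leaving out each replicate, other sets of windows, gene starts and distance limits, other clustering of errors, listed sites less than 10 kb apart counted once, and a Mantel-Haenszel estimate. Members, gene lists and tests were chosen with earlier results of these data known. Named were the nearest genes of the 10 members closest to a start with unique flanks, up to 10 genes with at least 2 members by name, the 2 sites on each side of the limit, up to 12 genes of the lists with a site, the 5 windows with the most members and the window with the fewest. Sequences are those of up to 6 of the closest members and of 1 gene with a pair. A gene that the rule would name is not reported here, nor are counts over its list.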

Additional observations from a re-analysis of the deposited data

How the results depend on the processing

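The site table does not separate the replicates. Leaving out replicate 2 thus repeats the values as reported, and leaving out replicate 1 repeats the windows called in both replicates. Neither checks a replicate. Without these repeats, 104 results were recomputed: 92 were unchanged in direction and in whether they passed, 9 no longer passed, 3 newly passed and 0 reversed. The odds ratio of near against far ran from 1.32 to 1.84 over 14 alternatives and passed in each. Location in a gene body, the CpG ratio and GC content passed in all 10 alternatives run for each, and DpnII distance in none. With GC content, fragment lengths and DpnII distance in the model, distance (0.803), the upstream side (0.767) and fragment length (1.25) did not pass. With unique flanks and these covariates together, an alternative chosen after seeing the data, the values were 0.819, 0.780 and 1.24. Unique flanks alone gave 1.22 for fragment length. Gene starts of all biotypes gave 0.815 for distance and 0.839 for the upstream side, both not passing, and 1.68 for the class of window, which passed, as did 1.56 with a limit of 5 kb. Over its 10 alternatives the class of window ran from 1.15 to 1.68 and several starts from 1.12 to 1.36. In windows called in both replicates, several starts gave 1.36 and passed, so leaving out either replicate gave 1.30 to 1.36. The cause of these changes was not tested. The class of window could not be fitted in those windows, since 1 class was left. The files hold no reads per site.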
